A study of Bos taurus with 8 samples.

Results

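The 8 genes described here encode enzymes that make and use ketone bodies (ACAT1, BDH1 and OXCT1) or that attach coenzyme A (CoA) to short-chain fatty acids (ACSS1, ACSS2, ACSS3, ACSM1 and ACSM3). They were taken by name: every array feature that is not a control and whose gene name equals 1 of the 8 symbols. Each gene had 1 probe, which gave 8 genes of the 14656 named on the array and 8 probes of its 15008. Liver RNA of 4 Holstein bulls of 5 to 6 months (animals 19, 20, 23 and 24) was hybridised to 1-colour arrays with 60-base probes. Each animal gave 1 array after 4 g and 1 after 0 g of egg-yolk immunoglobulin against lipopolysaccharide, given per head once daily for 14 days through a rumen fistula. All animals, at both doses, were fistulated and were challenged to subacute ruminal acidosis (SARA) by 2 days of a high-grain diet after 11 days of roughage, and the samples date from 2 days after the challenge. The dose groups therefore share the challenge, and no unchallenged animal was analysed here, nor was the 2 g dose of the Latin square.

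Microbes in the rumen ferment feed to acetate, propionate and butyrate, and the portal vein carries what the rumen wall does not use to the liver. Before a cell can oxidise such an acid or build from it, a synthetase must join it to CoA: the ACSS enzymes act on acetate and propionate, and the ACSM enzymes on butyrate and medium-chain acids. Acetyl-CoA in excess is turned into acetoacetate in liver mitochondria and reduced to 3-hydroxybutyrate by BDH1, and other tissues burn these ketone bodies by way of OXCT1. In cattle the rumen epithelium is itself a ketogenic tissue that makes 3-hydroxybutyrate from butyrate.

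What each probe measured is set by its sequence, and 5 of the 8 are shown: BDH1 because it stayed near background, ACSS2 and ACSM3 because they varied most among the measured genes, ACSM1 because it varied least, and OXCT1 because its transcript is faint in liver. They are read from the array files 5′ to 3′, with the letters AATAAA in capitals; these are the core of the common polyadenylation signal.
BDH1: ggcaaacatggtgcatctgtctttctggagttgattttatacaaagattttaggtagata
OXCT1: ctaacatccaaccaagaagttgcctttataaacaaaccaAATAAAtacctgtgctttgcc
ACSS2: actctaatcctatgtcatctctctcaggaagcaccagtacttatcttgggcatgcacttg
ACSM1: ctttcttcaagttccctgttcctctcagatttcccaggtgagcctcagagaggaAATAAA
ACSM3: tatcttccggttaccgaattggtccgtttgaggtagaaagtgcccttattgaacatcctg

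On the cattle assembly UMD 3.1 the array files place the BDH1 probe at chr1:72573002-72573061, the OXCT1 probe at chr20:32848664-32848723 and the ACSS2 probe at chr13:64841104-64841163. The ACSM1 probe lies at chr25:18413812-18413872 and the ACSM3 probe at chr25:18653027-18653190, 239155 bases apart. The ACSM3 positions span 164 bases for a probe of 60, so the probe is not 1 continuous stretch of that assembly. The ACSS1 probe lies at chr13:43029553-43029612, the ACSS3 probe at chr5:10904578-10904637, and the ACAT1 probe is listed as unmapped. The files give positions of probes alone, so whether a probe falls in a coding exon or in an untranslated region is not given here. AATAAA occurred in the ACSM1 and OXCT1 probes and in 9.51% of all 15008 probes as printed, against 3.40% on the reverse complement. The longest run of bases that any 2 of the 8 probes shared was 8, so the probes of related genes, such as ACSM1 and ACSM3, have little sequence in common. The GC content of the 5 printed probes ran from 35% for BDH1 to 45% for ACSS2, ACSM1 and ACSM3.

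Levels are log2 of the processed signal minus the 75th percentile of the array, so 0 is the 75th percentile of brightness on that array, and a level describes 1 probe across arrays and is not set against that of another probe. Array brightness varied: the 75th percentile was 125.8 on the 4 g array of animal 19 and 126.3 on the 0 g array of animal 20, and 218.0 to 311.7 on the other 6 arrays. The labels give liver as the tissue, and 23 of 25 markers of hepatocytes were clearly measured on every array, with list means of 3.97 to 4.48. Rumen epithelium, which the protocol for RNA extraction names instead, had 11 to 14 of its 30 markers well above background at 4 g and 11 to 19 at 0 g. Of these markers 10 were above background on no array, among them the keratins KRT14 and KRT4, the desmogleins DSG1 and DSG3 and the basal cell factor TP63. The 0 g array of animal 23 carried pancreatic acinar transcripts, with a mean level of 6.62 over 17 genes against −5.43 to −3.73 on the other arrays. All 17 were well above background there. At far lower levels, so were 14 on the 4 g array of animal 23. In animal 24, 13 were at 0 g and 10 at 4 g, against 4 to 5 on each array of animals 19 and 20. Leaving out animal 23 therefore does not leave out every array with such signal. In bulk tissue, fewer cells of a type and less RNA per cell cannot be told apart.

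The labels of animals 23 and 24 were treated as in doubt, so the dose value of each of the 7 tested genes is also given for animals 19 and 20 alone. Among 30 probes whose 8 values fell into a high and a low set more than 2 log2 units apart (beside 40 that set only the dimmest arrays apart), both arrays of an animal lay on the same side for 28 probes in animal 19 and for 28 in animal 20. The same held for 12 probes in animal 23 and for 13 in animal 24. In 18 of the 30, the array labelled 4 g of animal 23 went with the array labelled 4 g of animal 24. In the same 18 the 2 arrays labelled 0 g went together. Only 11 of these 18 set the arrays labelled 0 g of animals 23 and 24 apart from those labelled 4 g. In the rest, the arrays of both animals all lay on the same side. Those probes do not tell grouping by dose label from grouping by animal. Differences within animals 23 and 24 are those of the arrays so labelled.

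ACAT1, the mitochondrial thiolase that joins acetyl-CoA units to acetoacetyl-CoA at the start of ketogenesis, was well above background on all 8 arrays. Its log2 level was 2.15, 2.88, 3.45 and 3.11 in animals 19, 20, 23 and 24 at 4 g, against 3.04, 2.54, 2.68 and 3.16 at 0 g. The lowest array was the 4 g array of animal 19 and the highest the 4 g array of animal 23, so the 4 g values enclosed those at 0 g. ACAT1 averaged 2.90 ± 0.55 at 4 g and 2.85 ± 0.29 at 0 g (SD, n = 4 each), a log2 difference of 0.04 (SE 0.32, 95% CI −0.73 to 0.82). The difference was −0.27 in animals 19 and 20 alone.

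BDH1, the 3-hydroxybutyrate dehydrogenase that sets the balance between the 2 main ketone bodies, was the only gene of the 8 that stayed near background. None of the 4 g arrays (0 of 4) and 1 of 4 at 0 g, that of animal 19, measured it well above background, so it was not in the test. The measured log2 level was −6.98, −6.51, −6.79 and −6.93 at 4 g, against −4.73, −6.81, −6.07 and −6.67 at 0 g, in animals 19, 20, 23 and 24. All values but 1 lay between −6.98 and −6.07, and the 0 g array of animal 19 stood 1.34 log2 units above the next. Even there the processed signal was only 9.25 units, 1.02 log2 units over the dimmest signal that was well measured on that array. No fold is given, because the bound that the 4 g arrays allow lies above the 0 g mean. The measured means were −6.80 ± 0.21 at 4 g and −6.07 ± 0.95 at 0 g, and the 0 g mean was −6.52 without animal 19.

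The array on which BDH1 was measured also had the most rumen epithelium markers above background and their highest mean level, though not their highest summed level. Of the 30 markers of that tissue, 14 were highest on the 0 g array of animal 19, and 19 were well above background there, against 11 to 14 on the other 7 arrays. Among the 14, KRT14, KRT36 and DSG3 were well above background on no array, so their order among the arrays carries little weight. The mean marker level was −3.71 on the 0 g array of animal 19, and −5.74 to −4.53 on the others. Of the markers, 6 lay over 2 log2 units above every other array, among them KRT6B, a keratin of squamous epithelium, at 0.55 and A2ML1, a protease inhibitor of the same cells, at −0.65. The carbonic anhydrase CA1, another of the 6, stood at −0.57. The summed level of the list, which its brightest genes set, was 5.12 to 6.07 at 4 g and 4.95 to 5.47 at 0 g, and was 5.41 on this array, below the 6.07 of the 4 g array of the same animal. The part of these cells in the BDH1 value was not tested.

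**Figure D1:**
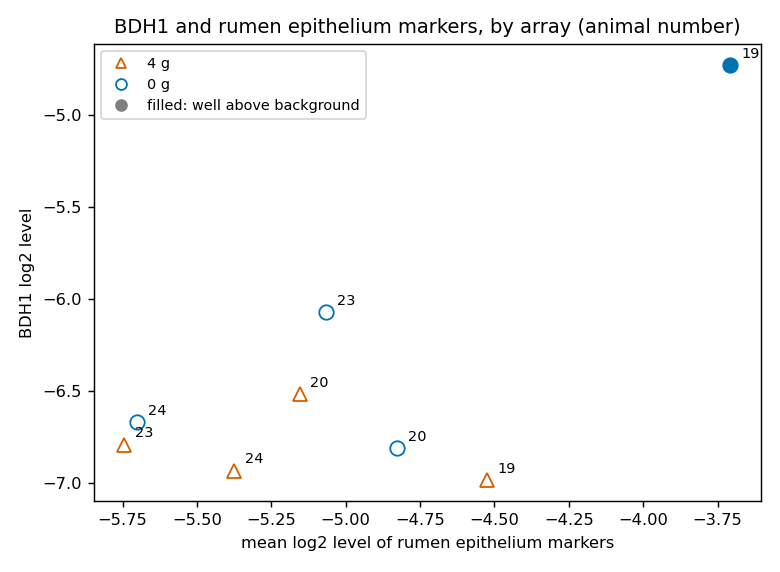
BDH1 log2 level (vertical) against the mean log2 level of 30 rumen epithelium markers (horizontal) on each of the 8 arrays; triangles are 4 g, circles 0 g, numbers are animals, and filled symbols are well above background. The 0 g array of animal 19 stands alone at −4.73, while the other 7 lie between −6.98 and −6.07 over marker means of −5.74 to −4.53.

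OXCT1, the CoA transferase with which tissues outside the liver take up acetoacetate for fuel, is known to be scarce in hepatocytes. Its signal was nevertheless well above background on 8 of 8 arrays, 1.88 to 2.90 log2 units over the dimmest well-measured signal of the array. The log2 level was −2.96, −3.13, −3.26 and −3.25 at 4 g, against −3.30, −2.66, −3.60 and −3.47 at 0 g, in animals 19, 20, 23 and 24. The 4 g values all fell inside the range of the 0 g values. OXCT1 averaged −3.15 ± 0.14 at 4 g and −3.26 ± 0.41 at 0 g, a log2 difference of 0.11 (SE 0.25, 95% CI −0.49 to 0.71). Animal 20 alone was lower at 4 g, by a log2 difference of −0.47. The difference over animals 19 and 20 was −0.06.

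ACSS1, the mitochondrial acetyl-CoA synthetase that lets a cell oxidise acetate, was the only gene of the 8 that was lower at 4 g in 4 of 4 animals. Its log2 level was −0.85, −0.44, −0.61 and −0.57 at 4 g, against −0.77, −0.22, 0.11 and −0.54 at 0 g, in animals 19, 20, 23 and 24. The ranges overlapped, since both arrays of animal 19 were the lowest of the 8. Differences in animals 19 and 24 were only −0.07 and −0.03, while that in animal 23 was −0.72. ACSS1 averaged −0.62 ± 0.17 at 4 g and −0.36 ± 0.38 at 0 g, a log2 difference of −0.26 (SE 0.24, 95% CI −0.83 to 0.31). The difference was −0.11 without animal 23, whose 0 g array carried the pancreatic transcripts, and −0.15 in animals 19 and 20 alone. Over all tested probes, 5.24% had the same sign in all 4 animals. The mean levels of 2 marker lists were also lower at 4 g in 4 of 4 animals, but their summed levels were not. The sum of the stellate and muscle cell markers was 5.546 at 4 g and 5.541 at 0 g in animal 19. The sum of the adipocyte markers was 3.99 at 4 g and 3.80 at 0 g in animal 23. In the other animals each sum was lower at 4 g. For 20 stellate and muscle cell markers, of which 14 to 20 were well above background at 4 g and 17 to 19 at 0 g, the mean ran from −3.08 to −2.09 at 4 g and from −2.57 to −1.35 at 0 g, and the summed level from 4.76 to 5.58 at 4 g and from 5.52 to 6.62 at 0 g. For 12 adipocyte markers, of which 7 to 8 were well above background at 4 g and 7 to 10 at 0 g, the mean ran from −3.66 to −2.90 at 4 g and from −3.37 to −1.98 at 0 g. Their summed level was 2.49 to 3.99 at 4 g and 2.92 to 3.80 at 0 g, and the lipid droplet protein PLIN1 and the hormone LEP were above background on 0 arrays. The part of these cells in the ACSS1 value was not tested.

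ACSS2, the cytosolic and nuclear acetyl-CoA synthetase that feeds acetate into lipid synthesis and histone acetylation, varied widely within both doses. The log2 level was 2.39, 4.09, 4.57 and 2.91 at 4 g, against 4.23, 3.09, 3.28 and 4.24 at 0 g, in animals 19, 20, 23 and 24. The 8 arrays fell into 4 at 4.09 or above and 4 at 3.28 or below, with 2 arrays of each dose in each. The array at 4 g was the lower by 1.84 in animal 19 and by 1.33 in animal 24, and the higher by 1.00 in animal 20 and by 1.29 in animal 23. The mean absolute difference within an animal was 1.36, against a median of 0.471 over all tested probes. ACSS2 averaged 3.49 ± 1.01 at 4 g and 3.71 ± 0.61 at 0 g, and the fitted log2 difference was −0.22 (SE 0.59, 95% CI −1.64 to 1.20). That interval covers 0.321- to 2.29-fold, so ACSS2 has the least precise dose value of the 7 tested genes. The difference was −0.42 in animals 19 and 20 alone.

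ACSS3, a mitochondrial synthetase whose rat form prefers propionate, differed with dose in the opposite direction to ACSS2 in 4 of 4 animals. Its log2 level was 2.65, 1.75, 1.82 and 2.06 at 4 g, against 1.70, 2.32, 1.96 and 1.93 at 0 g, in animals 19, 20, 23 and 24. The highest value was on the 4 g array of animal 19, where ACSS2 was lowest. ACSS3 averaged 2.07 ± 0.41 at 4 g and 1.98 ± 0.26 at 0 g, a log2 difference of 0.09 (SE 0.30, 95% CI −0.64 to 0.83), and of 0.18 in animals 19 and 20 alone.

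ACSM1, a mitochondrial synthetase that activates butyrate, was strong and steady. The log2 level was 6.42, 6.38, 6.20 and 6.52 at 4 g, against 6.45, 6.60, 6.03 and 6.01 at 0 g, in animals 19, 20, 23 and 24. The whole spread over 8 arrays was 0.59, and only 9.24% of the tested probes had a smaller one. ACSM1 averaged 6.38 ± 0.13 at 4 g and 6.27 ± 0.30 at 0 g, a log2 difference of 0.11 (SE 0.24, 95% CI −0.46 to 0.68), which covers 0.726- to 1.60-fold. It was −0.13 in animals 19 and 20 alone, and 0.34 in animals 23 and 24 alone.

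ACSM3, its relative on the same chromosome, was as variable as ACSM1 was steady. The log2 level was 0.66, 1.42, 2.62 and 2.32 at 4 g, against 1.84, 0.35, 1.54 and 1.91 at 0 g, in animals 19, 20, 23 and 24. The lowest values were those of the 2 dimmest arrays, 1 of each dose, and the highest those of the 4 g arrays of animals 23 and 24. ACSM3 averaged 1.75 ± 0.89 at 4 g and 1.41 ± 0.72 at 0 g, a log2 difference of 0.34 (SE 0.42, 95% CI −0.67 to 1.36). It was higher at 4 g in 3 of 4 animals. The difference was −0.06 in animals 19 and 20 alone and 0.75 (SE 0.31) in animals 23 and 24 alone. Its spread of 2.27 over the arrays was larger than that of 88.5% of the tested probes, and that of ACSS2, 2.18, larger than that of 87.0%.

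**Figure D2:**
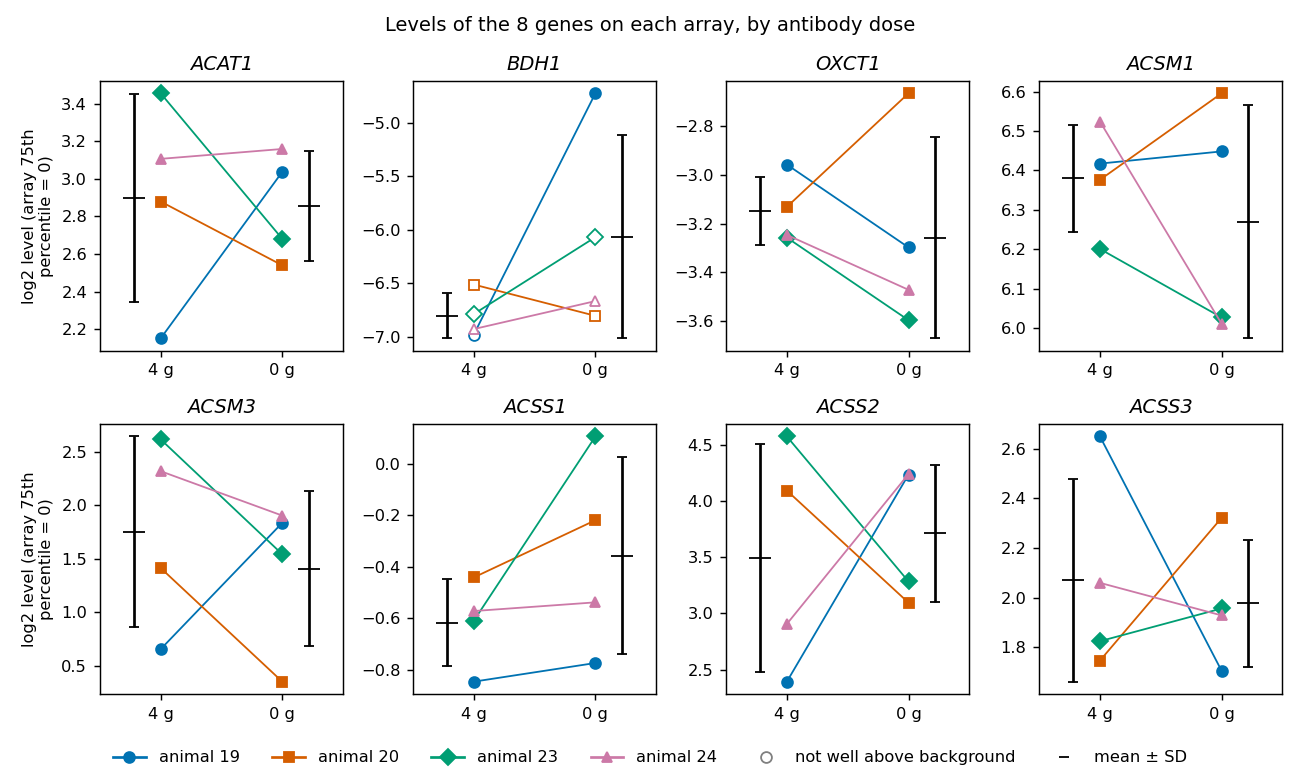
Log2 level of each of the 8 genes (vertical, each panel with its own scale) at 4 g (left) and 0 g (right); each line joins the 2 arrays of an animal, bars are means ± SD of 4 arrays, and open symbols are not well above background. The doses overlap in all 8 panels, ACSS1 slopes the same way in 4 animals, and ACSS2 slopes up in 2 and down in 2.

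The main comparison asked whether the antibody dose changed these enzymes in challenged animals. With limma and the animal as a block, 0 of the 7 tested genes changed: the adjusted p was 1.00 for each, over 10985 tested probes of which 0 (0%) were called. At an unadjusted p under 0.05 the count was 0 of 7 as well, against 120 probes (1.09%) in all, 39 of them higher at 4 g and 81 lower. The values at 4 g and 0 g overlapped for 8 of 8 genes, whereas 0.619% of the tested probes had dose groups that did not overlap. Of the 7 genes, 5 were higher and 2 lower at 4 g, with a median log2 difference of 0.09, beside a median of 0.025 over all tested probes. In animals 19 and 20 alone, 1 gene was higher and 6 lower, with a median of −0.13, and without the 0 g array of animal 23 the median was −0.003. The smallest unadjusted p of the 7 was that of ACSS1, at 0.309 in limma.

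A missed threshold does not show that the levels were equal, and the intervals say how large a difference remains possible. The 95% interval reached 0.57 log2 units to either side of the estimate for ACSM1 and ACSS1, and 1.42 for ACSS2, with a median of 0.703 over all tested probes. The 7 intervals all include 0, and the plot of differences shows how far the single animals spread around the fitted values.

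**Figure D3:**
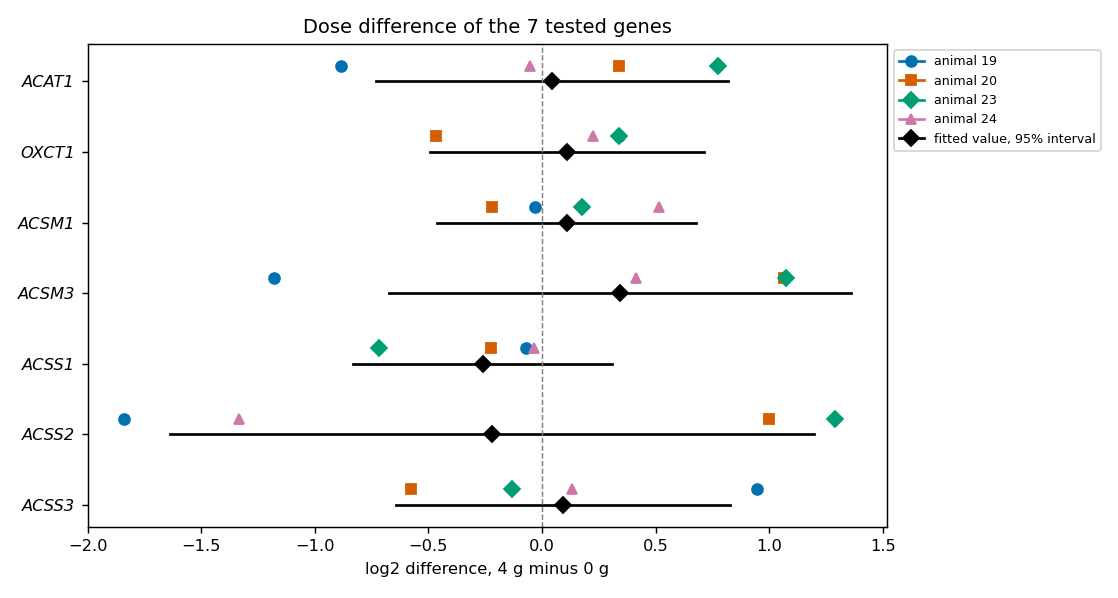
Log2 difference, 4 g minus 0 g (horizontal), of the 7 tested genes; coloured symbols are the 4 animals, and black diamonds with lines are the limma estimates with 95% intervals. The 7 intervals all include 0; the ACSS2 animals lie between −1.84 and 1.29, and those of ACSM1 between −0.22 and 0.51.

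The second comparison asked whether the animals differed. A moderated F-test over the animals, from the limma model above, called 0 of the 7 genes, with adjusted p of 0.985 to 0.991, and 0 of 10985 probes (0%). At an unadjusted p under 0.05 it gave 0 of 7 genes and 298 probes (2.71%). ACSM3 had the largest F of the 7, 2.12 (unadjusted p 0.194). Differences between animals beyond the spread between the arrays of an animal were therefore not detected with 4 animals.

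The levels of the tested genes other than ACSS1 rose or fell with the brightness of the array. Across the 8 arrays the correlation of the level with the log2 75th percentile was 0.87 for ACSM3, 0.84 for ACAT1 and 0.75 for ACSS2, and −0.87 for OXCT1, −0.82 for ACSS3 and −0.72 for ACSM1. For ACSS1 it was 0.11. These are descriptions over 8 arrays whose levels share that percentile as their scale. The share of all tested probes that ran as closely with brightness is not given here. The correlations are therefore not shown to be particular to these genes. The array at 4 g was the dimmer one in animals 19 and 24 and the brighter one in animals 20 and 23. ACAT1 and ACSS2 were lower at 4 g in the first pair of animals and higher in the second, in 4 of 4 animals with the sign of the brightness difference, and ACSS3 had the opposite sign in 4 of 4. With brightness as a further term in the model, an alternative added after the data were seen, the log2 difference was −0.01 (SE 0.30) for ACSS2, 0.00 for ACSS3, 0.13 for ACAT1 and 0.48 (SE 0.26) for ACSM3. It was −0.28 for ACSS1, 0.09 for ACSM1 and 0.07 for OXCT1, and none of the 7 genes was called.

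**Figure D4:**
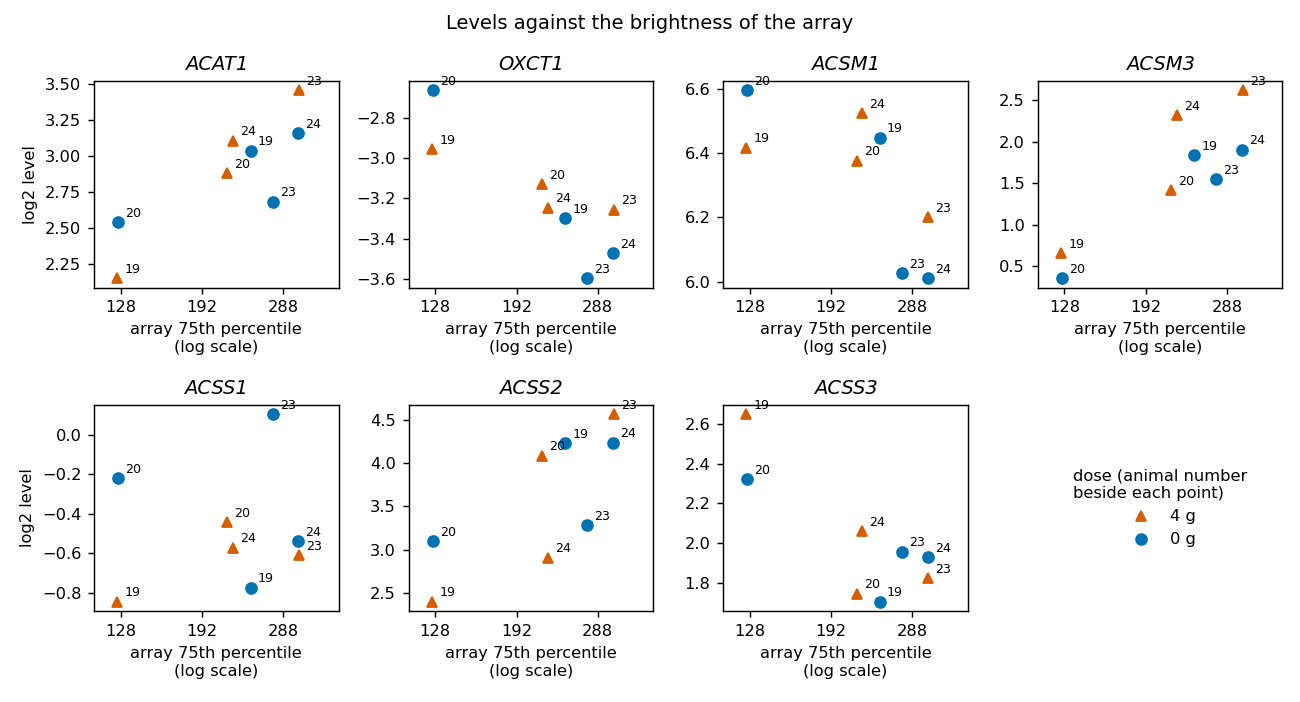
Log2 level of the 7 tested genes (vertical) against the 75th percentile of the array's processed signal (horizontal, log scale); triangles are 4 g, circles 0 g, and numbers are animals. ACAT1, ACSM3 and ACSS2 are higher on brighter arrays, OXCT1, ACSS3 and ACSM1 are lower there, and ACSS1 has a correlation of 0.11.

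Among themselves, the genes fell into opposed sets across arrays. ACAT1 correlated with ACSM3 at 0.90 and with ACSS2 at 0.80, and OXCT1 with ACSM1 at 0.80. ACSS3 ran against ACSS2 at −0.86 and against ACAT1 at −0.80. With the animal means removed the same 5 correlations were 0.92, 0.89, 0.64, −0.85 and −0.83. All are over 8 arrays that share 1 scaling, and carry no test.

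For each of the 7, up to 3 of the most similar tested genes are given, found by Pearson's r over the 8 arrays. ACAT1 was most like the autophagy enzyme ATG7 (r 0.98), the ubiquitin ligase subunit RBX1 (0.98) and the cystathionine synthase CBS (0.97). OXCT1 was most like TRAK2, HDAC11 and CARD9 (0.98 each), and ACSS1 like ARHGEF3 (0.98), LFNG (0.97) and RGCC (0.96). ACSS2 was most like TLCD1 (0.98), IL27RA (0.97) and the reductase CYB5R1 (0.95). ACSS3 was most like ZRANB2, SEC31B and DENND2D (0.98 each), and ACSM1 like VBP1 and ARAF (0.98 each). ACSM3 was most like ALG14 (0.99), the respiratory chain subunit UQCRC2 (0.98) and the peptidase ENPEP (0.98). Once the animal means were removed, only ALG14, beside ACSM3, was again among the 3 most alike. These were picked as the highest among those of the 10985 tested probes that have a gene name, over 8 arrays, so the size of r is no result.

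The other genes of ketone body metabolism gave no called gene either. Of 8 tested, 3 were higher and 5 lower at 4 g, 0 were called, and the median log2 difference was −0.03. OXCT2, a relative of OXCT1 known from testis, was well above background on only 2 of 4 arrays at each dose, and the lyase-like HMGCLL1 on 2 of 4 at 4 g and 3 of 4 at 0 g. Their fitted log2 differences of −0.47 (SE 0.23) and −0.11 therefore rest in part on arrays where these probes were not well measured, and no direction per animal is given.

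In the cytosol, acetoacetyl-CoA also serves sterol synthesis. There the thiolase ACAT2 differed by −1.70, 1.44, 1.31 and −0.56 in animals 19, 20, 23 and 24, and the acetoacetyl-CoA synthetase AACS by −0.26, 0.20, 1.75 and −1.82. Both had the signs of ACSS2 in 4 of 4 animals, and they were singled out after their values were seen. Those signs are also the signs of the brightness difference between the 2 arrays of each animal. The synthase HMGCS1, with 0.53, −1.07, 1.22 and −1.11, shared the sign of ACSS2 in animals 23 and 24 only. These genes share arrays and scaling with ACSS2, and the likeness was not tested.

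Of the other synthetases and conjugating enzymes for short and medium chains, 7 of 11 listed were on the array and tested: 2 were higher and 5 lower, with a median of −0.02, which was 0.40 without animal 19. ACSF2, a medium-chain synthetase well above background on 3 of 4 arrays at each dose, differed by −0.73 (SE 0.64), and by −0.07 without animal 19. The malonyl-CoA synthetase ACSF3 differed by 0.20, and SLC27A2, a very long-chain synthetase and fatty acid transporter, by 0.39 (SE 0.22), higher at 4 g in 4 of 4 animals. AACS belongs to this list and to the ketone body list. ACSM2A, ACSM4, ACSM5 and ACSM6 had no probe matched by name. In the same way 6 genes of propionate use gave 3 higher and 3 lower with a median of 0.08, and none of them was called. The propionyl-CoA carboxylase subunits PCCA and PCCB differed by 0.37 (SE 0.34) and 0.16, and the mutase MMUT, which leads propionate into the citric acid cycle, by 0.17.

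The list drawn up for butyrate and short-chain oxidation, 10 genes in all, gave 6 higher and 4 lower with a median of 0.08. Not all of its genes are particular to short chains, among them HADHA, HADHB, ACAA2, ETFA, ETFB and ETFDH. HADH, the short-chain 3-hydroxyacyl-CoA dehydrogenase, had a log2 level of 3.71, 3.57, 3.54 and 3.75 at 4 g, against 3.38, 3.45, 3.17 and 3.57 at 0 g. It was higher at 4 g in 4 of 4 animals by a fitted log2 difference of 0.25 (SE 0.21), and HADHB of the trifunctional protein differed by −0.14. The thiolase ACAA2 differed by 0.48 (SE 0.23). ECHS1, the short-chain enoyl-CoA hydratase, was singled out after its values were seen: it stood at 0.33 on the dim 4 g array of animal 19 and at 0.74 on the dim 0 g array of animal 20, and at 2.91 to 3.71 on the other 6 arrays.

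The remaining lists also gave no called gene. Of 9 tested acyl-CoA hydrolases, which undo the work of the synthetases, 6 were higher and 3 lower (median 0.17), with ACOT2 at 0.35, ACOT13 at 0.23 and ACOT7 at −0.18; ACOT1 had no probe matched by name. Of 12 genes of fatty acid entry into mitochondria, 8 were higher and 4 lower (median 0.09), with the carnitine carrier SLC25A20 at 0.24 and the long-chain synthetases ACSL3 and ACSL5 at 0.26 and 0.23. Of 14 tested regulators of ketogenesis, 8 were higher and 6 lower (median 0.04). The malonyl-CoA decarboxylase MLYCD, which relieves the brake on fatty acid entry, differed by 0.47 (SE 0.22), but was well above background on only 3 of 4 arrays at 0 g. The nuclear receptor RXRA differed by −0.30, −0.89, −3.03 and 0.74 in animals 19, 20, 23 and 24. Its fitted value of −0.87 (SE 0.59) rests on animal 23, whose 0 g array held pancreatic RNA, and the mean difference was −0.15 without that animal. ACACB, the acetyl-CoA carboxylase that makes malonyl-CoA at mitochondria, was above background on 0 arrays.

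FGF21, a liver hormone of fasting and ketosis, had the widest spread of these regulators. Its log2 level was −5.24, 0.41, −2.36 and −5.13 at 4 g, against −5.56, −0.28, 1.26 and 0.03 at 0 g, in animals 19, 20, 23 and 24. It was faint on both arrays of animal 19 and high on both of animal 20. The log2 difference of −1.94 (SE 1.02) came from the arrays labelled animals 23 and 24, at −3.62 and −5.16. The highest value, 1.26, was on the 0 g array of animal 23, which held pancreatic RNA. The mean difference was −1.39 without that animal, and the part of that RNA in the FGF21 value was not tested. In animal 20 FGF21 was higher at 4 g by 0.68. In animal 19 the 4 g array was not well above background, so no direction is given there. Of 11 tested transporters and receptors of monocarboxylates, 4 were higher and 7 lower (median −0.13, and 0.015 without animal 23). The lactate and ketone body carriers SLC16A1, SLC16A7 and SLC16A13 differed by −0.13, 0.31 and 0.14. SLC5A8, a sodium-coupled carrier of short-chain acids, was above background on 0 arrays, and the butyrate receptor HCAR2 had no probe matched by name.

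**Figure D5:**
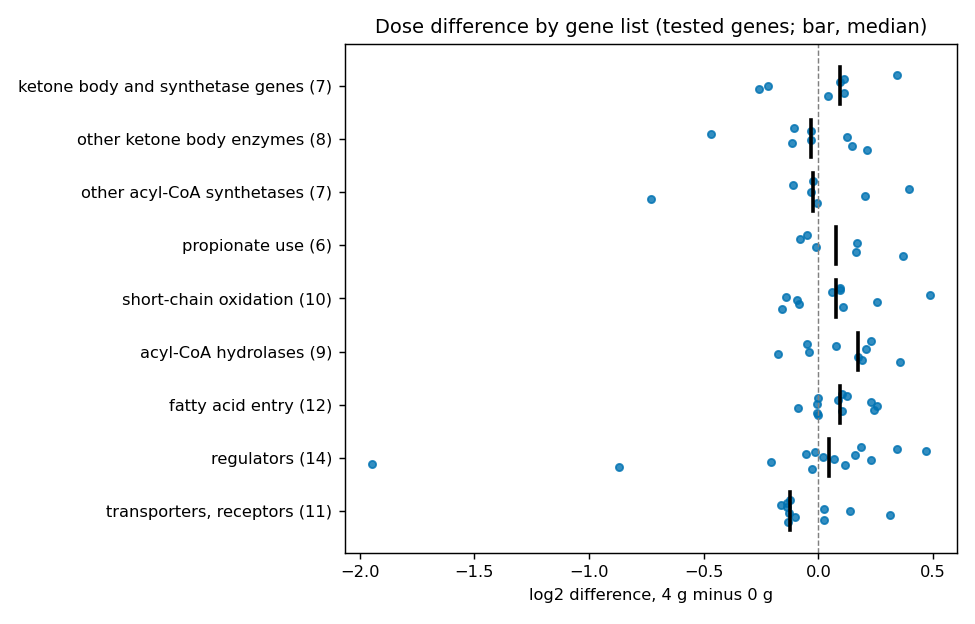
Log2 difference, 4 g minus 0 g (horizontal), of each tested gene in 9 lists (rows, number tested in parentheses), with black bars for list medians. The medians lie between −0.13 and 0.17, and the 2 lowest points are FGF21 at −1.94 and RXRA at −0.87. The RXRA value rests on the 0 g array of animal 23, which held pancreatic RNA. Without that animal the mean differences were −1.39 for FGF21 and −0.15 for RXRA.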

How the data were processed

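The spot intensity values were deposited by the authors as processed signals of Feature Extraction 11.0.1.1, per the file headers; the submitters' processing notes name version 9.5. These are background-subtracted brightness values on a linear scale, not scaled between arrays. The deposited series table holds log2 values that correlated at 1.00 with the log2 processed signal, with column medians of −3.04 to −2.84, centred on the 75th percentile; it served as an alternative. The files also hold other columns, such as flags for spots well above background, which the authors' scanner software set.

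Processed signals were turned to log2 here and the 75th percentile of the array was subtracted. Of 15646 features, 536 controls were left out, as were 48 outlier spots, and spots of a probe were averaged. The test was kept to the 10985 of 15008 probes that were well above background on 4 or more of the 8 arrays. No spot was saturated, and 64.4% to 80.4% of probes were well above background per array; the number of arrays limits the precision. All arrays came from 1 slide and 1 scan date. Slide row 1 held animals 19 and 20 and row 2 animals 23 and 24.

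Differences were fitted with limma 3.58.1 in R 4.3.3 (data.table version 1.17.8 for reading), lmFit and eBayes, 2-sided, with Benjamini-Hochberg adjustment over all tested probes at 0.05. The animal was a block, because the labels number the animals and the design makes each its own control; the period of each dose is not in the labels used here. As a check of the pairing, the 2 arrays of animals 19, 20, 23 and 24 had deviations from their dose means that correlated at −0.19, −0.18, 0.21 and 0.13 across probes, so the pairing rests on the labels. The fit was also run on simulated data. These had independent noise and no differences in array brightness, so that run does not show how the fit performs on arrays like these. Current gene symbols came through RefSeq accessions, symbols or synonyms (ARS-UCD2.0, names only; 307 probes stayed unnamed). The 8 genes were named whatever their value, with up to 3 genes per pathway list by the smallest unadjusted p and the 3 tested genes most correlated with each; a few genes so named are not reported here. The genes and lists were chosen with earlier results of these data known. Alternatives covered scaling, background correction, filter, block, weights, slide row and single animals or arrays.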

Additional observations from a re-analysis of the deposited data

How the results depend on the processing

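None of the 7 tested genes passed under any of the alternatives run, and none of the 16 groups of 4 arrays had an array that stood apart by Dixon's criterion. With 4 values that criterion flags only extreme arrays. For BDH1 it did not flag the 0 g array of animal 19, which stood 1.34 log2 units above the next. The count of probes called stayed at 0 in all settings but the one without the 2 dimmest arrays, which has no block: 5 probes were called there, none of them 1 of the 8 genes. Without the animal block, that is without the pairing of arrays, 0 probes were called (103 at an unadjusted p under 0.05). The estimates were the same as with the block, which is fixed by the design of 1 array per dose in each animal. That sameness is therefore no check of the estimates. Leaving out each animal in turn gave 0 to 0 calls.

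Signs were less stable than calls. ACSS1 kept its sign in all settings. ACAT1 changed sign with quantile normalization (−0.00410), centring on hepatocyte markers (−0.0199), without the 0 g array of animal 23 (−0.0140) and in slide row 1 (−0.27), and ran from −0.20 to 0.35 when animals were left out in turn. OXCT1 changed sign with normexp (−0.0419), without the 0 g array of animal 23 (−0.00337) and in slide row 1 (−0.0633). Array quality weights gave 0.28 for ACSS2 and −0.0328 for ACSS3. ACSS3 was −0.000275 in slide row 2, and in slide row 1 ACSM1 was −0.13 and ACSM3 −0.0593. Leaving out animals in turn gave −0.73 to 0.32 for ACSS2, −0.19 to 0.31 for ACSS3, −0.0256 to 0.22 for ACSM1 and 0.10 to 0.85 for ACSM3. List medians moved with single animals too: left out in turn, they gave −0.26 to 0.11 for the other ketone body genes, −0.19 to 0.40 for the other synthetases, −0.02 to 0.18 for propionate use, −0.15 to 0.35 for short-chain oxidation and −0.02 to 0.09 for the hydrolases. Fewer arrays entered the slide row fits; the cause of the other changes was not tested. With 4 animals, differences smaller than the intervals were not detectable, and BDH1 was limited by signal over background.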
